A study of Homo sapiens with 2 samples.

Results

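The genes examined were 46 genes of the lysosome and of autophagy, chosen by name and by role with earlier results of these data known, under a rule that uses no measured value. They comprised the TFEB family of transcription factors, lysosomal membrane proteins, cathepsins, other lysosomal hydrolases, subunits of the vacuolar proton pump (V-ATPase) and the core genes of autophagy. All 46 were found among the 41582 gene symbols to which the transcripts of the series could be matched. The samples were cultures of U87, an established human glioblastoma cell line, labelled wild type and grown in RPMI medium with serum. One culture received CCA-1.1, a curcumin analog, and the other received its vehicle DMSO, both for 72 h, and 1 mRNA library was sequenced from each. The CCA-1.1 concentration of the sequenced culture is not given in the sources used here. With 1 library per condition there is no replicate error, no test was run, and every difference compares these 2 libraries.

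Lysosomes are acidic organelles in which hydrolases degrade proteins, lipids and glycans. The V-ATPase pumps protons into them, and in macroautophagy a double membrane closes around cytoplasmic cargo and fuses with them. TFEB, TFE3 and MITF bind a palindromic promoter element, known as the CLEAR element, in many lysosomal and autophagy genes, and mTORC1 at the lysosome keeps TFEB and TFE3 in the cytosol when nutrients are plentiful. In glioblastoma, cathepsins are also known for the degradation of extracellular matrix, and autophagy is a commonly studied response to drug treatment.

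Levels are given as TPM, summed over the transcripts of a gene. TPM divides reads by transcript length and scales every library to the same total, so levels of different genes can be compared, but the read depth is unknown. In a bulk culture, fewer cells carrying an RNA and less RNA per cell cannot be told apart. The difference of a gene is log2(TPM + 1) with CCA-1.1 minus log2(TPM + 1) with DMSO. On this scale the differences of genes with low TPM are understated. The comparison set was made of 12041 protein-coding genes that averaged 1 TPM or more over both libraries, and their median difference was 0.017, with 5th and 95th percentiles of -0.31 and 0.36. Of the mesenchymal and glial markers looked at, VIM was at 3217 TPM with DMSO and 3106 TPM with CCA-1.1, FN1 at 11241 and 9088 TPM, CD44 at 607 and 473 TPM, and S100A6 at 22119 and 19563 TPM. The stem and glial lineage markers NES, SOX2 and OLIG2 were at 7.53 and 7.62, 1.87 and 1.45, and 5.64 and 7.03 TPM. The astrocyte markers GFAP (0.41 and 0.57 TPM) and S100B (listed at 0 in both) were absent or nearly so, and so were the leukocyte markers PTPRC (0.09 and 0.07 TPM) and AIF1 (listed at 0 in both). Of 5 other genes of foreign cell types, EPCAM and ALB were each under 1 TPM, PECAM1 was at 3.41 and 2.71 TPM, RBFOX3 at 1.83 and 2.45 TPM and SYT1 at 11.4 and 11.5 TPM.

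The 46 genes were expressed at very different levels, and their total hardly differed between the libraries. They held 1.37% of all TPM with DMSO and 1.31% with CCA-1.1. The highest levels belonged to CD63, CTSD, CTSB, CTSA and PSAP, the top 5 in each library, although CD63 led with DMSO and CTSD led with CCA-1.1. At the other end, CTSZ, which encodes the carboxypeptidase cathepsin Z, was at 0.44 TPM with DMSO and 0.72 TPM with CCA-1.1 and was the only member with a mean below 1 TPM. The remaining 45 genes are counted below.

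**Figure D1:**
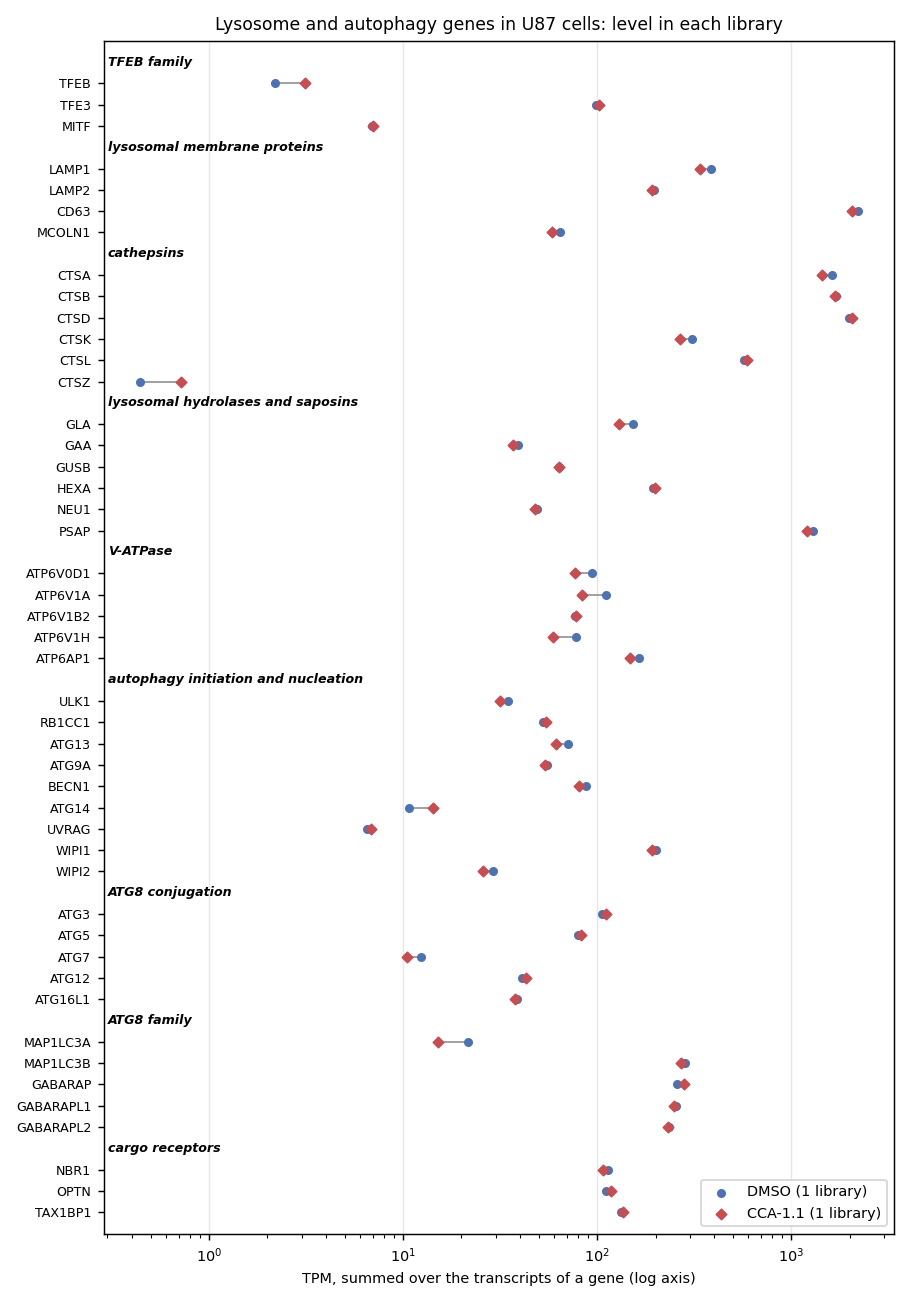
Level of each of the 46 genes in TPM on a log axis, grouped by role, with a circle for the DMSO library and a diamond for the CCA-1.1 library. The symbols of most genes overlap or nearly touch, and the widest gaps between them are at CTSZ, TFEB, MAP1LC3A, ATP6V1A and ATG14.

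No member differed by 2-fold, where 0.149% of the comparison set was higher and 0.191% lower by that much. At 1.2-fold, 2 of the 45 members (4.44%) were higher with CCA-1.1, TFEB and ATG14, against 10.7% of the comparison set. At the same fold, 4 of the 45 (8.89%) were lower, ATP6V1A, ATP6V1H, ATP6V0D1 and MAP1LC3A, against 7.04% of the comparison set. The share of higher members was thus below the background and the share of lower members close to it, with each gene worth more than 2 percentage points. The median difference of the 45 members was -0.045, and 28 of them (62.2%) were below 0, while 46% of the comparison set was below 0. Most members averaged 10 TPM or more. Among the 7906 protein-coding genes at that level, 7.44% were higher and 6.07% lower by 1.2-fold, and 48.8% were below 0. With the same minimum, 1 member, ATG14, was higher and 4 were lower by 1.2-fold, because TFEB (mean 2.67 TPM) is left out. The shares of the 45 members are therefore not directly comparable with those of these genes. The 22 autophagy members had a median of -0.032 and the 20 lysosomal members a median of -0.10.

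The TFEB family was represented mainly by TFE3. TFE3 was at 98.2 TPM with DMSO and 101.7 TPM with CCA-1.1 (difference 0.05). MITF was at 6.94 and 6.98 TPM (difference 0.01), and TFEB was the lowest of the family with 2.20 TPM against 3.14 TPM (difference 0.37). TFEB lies on chromosome 6 (GRCh38.p14, 41683978 to 41736223). The predicted TFEB transcript XM_005249411.2 was listed at 0 with DMSO and at 0.50 TPM with CCA-1.1, and the leading transcript NM_001271944.2 was at 1.72 and 2.17 TPM. With curated transcripts only, the TFEB difference was 0.19, which is under 1.2-fold. The microRNA gene MIR10398, which overlaps TFEB, was listed at 0 with DMSO and at 3.23 TPM with CCA-1.1, and its part in the TFEB value was not tested.

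Within MITF, the transcript of the melanocyte form (NM_000248.4) was listed at 0 in both libraries. The leading MITF transcript, NM_198159.3, was at 3.28 TPM with DMSO and 4.02 TPM with CCA-1.1, which is 47.3% and 57.6% of the gene. In TFE3 the leading transcript NM_006521.6 was at 72.8 and 81.7 TPM, and NM_001282142.2 at 18.5 and 13.8 TPM. Thus the sums of MITF and TFE3 stayed close while the estimated shares of their transcripts moved by 10.3 and 6.13 percentage points.

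The promoters of the members were searched for the core of the CLEAR element, because several of the genes measured here are textbook targets of the family. RefSeq promoter windows of GRCh38.p14, from 250 bases before to 50 bases after a start site, were at hand for 35 of the 46 members. The members without one are ATP6V1A, ATP6V1B2, ATP6V1H, CTSB, CTSK, HEXA, LAMP2, MAP1LC3A, PSAP, RB1CC1 and UVRAG. Both motifs, the 6-letter CACGTG and the 8-letter TCACGTGA that contains it, are palindromes, so a match lies on both strands. The core was present in 10 of the 51 member windows (19.6%), and in 7.26% of all 35116 windows. It was found in 9.33% of the 14592 windows of the comparison set. For the 8-letter form the corresponding values were 11.8%, 0.98% and 1.73%. Counted by gene, the core was found in 10 of 35 members (28.6%) and in 12.8% of the 9900 genes of the comparison set with a window. Because textbook targets are among the members, a higher share was likely beforehand and is not a result of these data. A match describes the letters only, and no binding was measured.

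Stretches from the promoters of 7 members show these letters. Each is written 5′ to 3′ in the direction of transcription, in lower case with the core in capitals, and each ends before the start site. The LAMP1 stretch (chr13:113297039-113297229, plus strand) was chosen for its run of 5 cores. MCOLN1 (chr19:7522564-7522623, plus strand), GAA (chr17:80101491-80101580, plus strand) and CTSA (chr20:45891275-45891334, plus strand) hold 2 cores each. ATP6V0D1 (chr16:67481178-67481237, minus strand) and ATG14 (chr14:55411831-55411880, minus strand) are the members past 1.2-fold found with a core, the former lower and the latter higher with CCA-1.1. TFEB, also past 1.2-fold, has a window without the core. ATP6V1A, ATP6V1H and MAP1LC3A, the others past 1.2-fold, have no window and could not be searched. CTSD (chr11:1763948-1763997, minus strand) is shown as the cathepsin with the highest level.
LAMP1: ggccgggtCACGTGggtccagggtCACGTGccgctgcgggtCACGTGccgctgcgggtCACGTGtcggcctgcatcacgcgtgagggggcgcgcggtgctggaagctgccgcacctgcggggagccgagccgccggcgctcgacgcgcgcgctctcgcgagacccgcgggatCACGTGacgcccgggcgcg
MCOLN1: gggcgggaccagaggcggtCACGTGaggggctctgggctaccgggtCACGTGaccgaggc
GAA: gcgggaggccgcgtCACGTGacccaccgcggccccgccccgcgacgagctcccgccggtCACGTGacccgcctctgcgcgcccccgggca
CTSA: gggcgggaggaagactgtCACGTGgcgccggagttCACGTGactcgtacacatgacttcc
ATP6V0D1: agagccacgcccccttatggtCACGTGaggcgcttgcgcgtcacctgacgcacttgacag
ATG14: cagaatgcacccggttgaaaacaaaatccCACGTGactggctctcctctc
CTSD: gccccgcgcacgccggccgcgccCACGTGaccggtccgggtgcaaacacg

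The 10 members with a core were LAMP1, MCOLN1, GAA, CTSA, ATP6V0D1, ATG14, CTSD, NEU1, CD63 and ATG3. Their median difference was -0.095, with ATG14 highest at 0.38 and ATP6V0D1 lowest at -0.29. The 24 members that have a window without the core and a mean of at least 1 TPM had a median of -0.032. MAP1LC3A, ATP6V1A and ATP6V1H, the members with the lowest differences, have no window and are in neither median. In the comparison set, the 1267 genes with a core had a median difference of 0.028 and the 8633 genes without one a median of 0.015. The order of the medians was therefore not the same for the members as for the comparison set. Of the 10 members with a core, all but ATG14 and ATG3 are lysosomal. Of the 24 without one, CTSL, GLA, GUSB and ATP6AP1 are the only lysosomal members. The 20 lysosomal members had a median of -0.10 and the 22 autophagy members a median of -0.032. Motif and kind of gene can therefore not be told apart in these medians.

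All 4 lysosomal membrane proteins were lower in the CCA-1.1 library, none by 1.2-fold. LAMP1, with LAMP2 the most abundant glycoprotein of the lysosomal membrane, was at 386 TPM with DMSO and 339 TPM with CCA-1.1 (difference -0.18). The tetraspanin CD63 was at 2218 and 2048 TPM (difference -0.12). The calcium channel MCOLN1 was at 64.3 and 58.7 TPM (difference -0.13). The median of the group was -0.12.

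LAMP2 had the smallest difference of this group, with 196.9 TPM against 190.8 TPM (difference -0.04). The gene is spliced into 3 forms with different tails, of which LAMP2A is the receptor of chaperone-mediated autophagy. LAMP2B (NM_013995.2) held 90.8% of the gene with DMSO and 90.3% with CCA-1.1. LAMP2A (NM_002294.3) was at 18.2 and 18.5 TPM, or 9.23% and 9.71% of the gene. LAMP2C (NM_001122606.1) was listed at 0 in both. The composition of LAMP2 was therefore nearly the same in both libraries.

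Among the cathepsins, CTSZ was near 0, the other 5 were highly expressed, and none of these 5 differed by 1.2-fold. The aspartic protease CTSD was at 1978 TPM with DMSO and 2062 TPM with CCA-1.1 (difference 0.06), and the cysteine protease CTSL at 569 and 590 TPM (difference 0.05). CTSB, also a cysteine protease, was at 1693 and 1671 TPM (difference -0.02). These 3 genes were the closest to 0 of the group. CTSA, the protective protein of NEU1, was at 1618 and 1441 TPM (difference -0.17), and CTSK, known for the degradation of collagen, at 310 and 267 TPM (difference -0.21). The sum of the 6 cathepsins was 6168 TPM and 6033 TPM.

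The neighbours of the cathepsin genes were looked at for shared reads. PLTP overlaps CTSA and was lower as well, with 617 TPM against 538 TPM (difference -0.20), and its part in the CTSA value was not tested. The CTSL-like genes CTSLP2, CTSLP8, CTSL3P and CTSV stayed under 1 TPM. In CTSB, whose leading transcript NM_001908.5 was at 1482 and 1477 TPM, the transcripts NM_001384724.1 (4.50 TPM, then listed at 0) and NM_147781.4 (listed at 0, then 3.04 TPM) passed 2-fold in opposite directions. They made up 0.27% and 0.18% of the gene in the library where each was present.

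The other lysosomal hydrolases and PSAP, the precursor of the saposins that assist lipid hydrolysis, ran from -0.25 to 0.03. GLA, the alpha-galactosidase, was the lowest with 153 TPM against 129 TPM (difference -0.25), just inside 1.2-fold. The readthrough gene RPL36A-HNRNPH2, which overlaps GLA, was at 28.6 and 37.9 TPM. PSAP was at 1286 and 1211 TPM (difference -0.09), and GAA, the acid alpha-glucosidase, at 39.0 and 37.0 TPM (difference -0.07). NEU1, a sialidase, was at 49.0 and 47.8 TPM (difference -0.04), and the beta-glucuronidase GUSB at 63.3 and 63.6 TPM (difference 0.01). HEXA, the alpha subunit of beta-hexosaminidase A, was the highest of the group at 0.03, with 195 TPM and 199.6 TPM. In HEXA, the leading transcript NR_134869.3 carries the RefSeq prefix of a non-coding RNA and held 70.7% of the gene with DMSO and 69.7% with CCA-1.1. The curated coding transcript NM_000520.6 was at 52.4 and 55.4 TPM.

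The V-ATPase genes had the lowest median of the 9 role groups, -0.29. ATP6V1A, the catalytic subunit A of the cytosolic sector, was at 110.9 TPM with DMSO and 83.6 TPM with CCA-1.1 (difference -0.40). Its leading transcript NM_001690.4 carried this, with 109.4 and 82.3 TPM. ATP6V1H, the subunit that couples both sectors, was at 77.7 and 59.4 TPM (difference -0.38), and ATP6V0D1, the d subunit of the membrane sector, at 94.0 and 76.7 TPM (difference -0.29). In TPM, the change relative to DMSO was -24.6% for ATP6V1A, -23.5% for ATP6V1H and -18.5% for ATP6V0D1, and the subunits belong to both sectors of the pump. The accessory protein ATP6AP1 was at 163 and 148 TPM (difference -0.15), and ATP6V1B2, which pairs with subunit A, was at 77.0 and 78.0 TPM (difference 0.02). ATP6V1A lies on chromosome 3 (GRCh38.p14, 113747035 to 113812056), ATP6V1H on chromosome 8 (53715543 to 53843245) and ATP6V0D1 on chromosome 16 (67438019 to 67481157).

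Of 15 further V-ATPase genes counted, 2 (13.3%) were higher and 1 (6.67%) was lower by 1.2-fold, both near the shares of the comparison set (10.7% and 7.04%), and their median was -0.008. ATP6V0D2, the paralog of ATP6V0D1, was at 39.3 TPM with DMSO and 59.5 TPM with CCA-1.1 (difference 0.59), so that both d subunits together were at 133 and 136 TPM. ATP6V1G2 was at 2.29 and 2.95 TPM (difference 0.26), and ATP6V1E2 at 7.51 and 6.04 TPM (difference -0.27). Over all 20 subunits and accessory proteins counted, 4 (20%) were lower and 2 (10%) higher by 1.2-fold, with a median of -0.058. The share of higher genes was near that of the comparison set (10.7%), and the share of lower genes, which includes the 3 members above, was larger than 7.04%.

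Autophagy starts with the ULK1 kinase complex, followed by the lipid kinase complexes built on BECN1. ULK1 was at 34.5 TPM with DMSO and 31.7 TPM with CCA-1.1 (difference -0.12). Its partners ATG13 (70.7 and 61.3 TPM, difference -0.20) and RB1CC1 (52.9 and 54.8 TPM, difference 0.05) lay on both sides of 0. BECN1 was at 88.0 and 80.4 TPM (difference -0.13).

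ATG14, which directs the BECN1 complex to sites where autophagosomes form, had the highest difference of all members, with 10.7 TPM against 14.2 TPM (difference 0.38). UVRAG, the alternative partner of BECN1, was at 6.51 and 6.83 TPM (difference 0.06), and its difference was 0.24 with curated transcripts only. ATG14 lies on chromosome 14 (GRCh38.p14, 55366391 to 55411830). Its curated transcript NM_014924.5 was at 10.1 and 12.8 TPM, a difference of 0.31, and the predicted transcript XM_011536563.3 was at 0.55 and 1.45 TPM. FBXO34, which overlaps ATG14, was at 17.5 and 17.4 TPM. Both transcripts of ATG14 were higher with CCA-1.1, and the part of reads shared with FBXO34 was not tested.

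ATG9A, the transmembrane protein of autophagic vesicles, was at 55.3 and 54.2 TPM (difference -0.03). The phosphoinositide-binding proteins WIPI1 (201.9 and 190.5 TPM, difference -0.08) and WIPI2 (29.1 and 26.0 TPM, difference -0.16) were also lower by less than 1.2-fold. WIPI2 was the member whose leading transcript was not the same in both libraries. NM_016003.4 led with DMSO (10.3 and 7.82 TPM), and NM_015610.4 led with CCA-1.1 (8.02 and 7.86 TPM). With CCA-1.1 these transcripts were nearly equal.

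The conjugation genes, which attach ATG8 proteins to membrane lipid, stayed within 1.2-fold. The E2-like enzyme ATG3 was at 105.4 and 111.5 TPM (difference 0.08), and ATG5 (80.1 and 82.2 TPM, difference 0.04) and its conjugate partner ATG12 (40.8 and 43.1 TPM, difference 0.08) were likewise slightly above 0. The scaffold ATG16L1 was at 38.8 and 37.5 TPM (difference -0.05). The E1-like enzyme ATG7 was the lowest of the group, with 12.3 TPM against 10.4 TPM (difference -0.22).

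The ATG8 family, the proteins that coat the autophagosome and bind cargo receptors, comprised 4 genes of similar level and 1 low gene. MAP1LC3B (282.5 and 270.7 TPM, difference -0.06), GABARAP (259.2 and 281.5 TPM, difference 0.12), GABARAPL1 (254 and 249 TPM, difference -0.03) and GABARAPL2 (233 and 231 TPM, difference -0.01) were the 4 abundant genes. MAP1LC3A was at 21.6 TPM with DMSO and 15.1 TPM with CCA-1.1 and had the lowest difference of all members, -0.49. MAP1LC3A lies on chromosome 20 (GRCh38.p14, 34546844 to 34560345). Its leading transcript NM_032514.4 was at 21.2 and 14.5 TPM, while NM_181509.3 was at 0.48 and 0.65 TPM. The sum of the family was 1051 TPM and 1047 TPM. The similar genes MAP1LC3B2 and GABARAPL3 stayed under 1 TPM, and GABARAPL1-AS1, which overlaps GABARAPL1, was at 4.96 and 8.31 TPM.

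Among the cargo receptors, which link ubiquitinated cargo to ATG8 proteins, the differences were small. NBR1 was at 113.9 and 106.6 TPM (difference -0.09), OPTN at 110.9 and 117.5 TPM (difference 0.08) and TAX1BP1 at 133 and 136 TPM (difference 0.02). For OPTN, the leading transcript NM_021980.4 was at 77.5 and 74.4 TPM, and NM_001008212.2 was at 24.7 and 30.8 TPM.

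The table lists 318 transcripts of the 46 genes, from 1 transcript for 11 genes to 54 for ATG13. Of these, 69 were at 0 in both libraries, 24 were listed at 0 with DMSO alone and 26 with CCA-1.1 alone. Past 2-fold, 7 member transcripts (2.20%) were higher with CCA-1.1 and 4 (1.26%) were lower, against 1.17% and 1.07% of the 177816 transcripts of the table. That set includes many transcripts at 0, which cannot pass, and the transcripts past 2-fold were low. These counts depend on the pseudocount of 1 TPM and were 36 higher and 34 lower with 0.1 TPM, 40 and 41 with 0.01 TPM, and 3 and 1 for transcripts with a mean of 1 TPM or more. None of the 11 exceeded 6.60 TPM, and 8 of them were listed at 0 in one library.

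These 11 transcripts belonged to ATG12, ATG13, ATG16L1, ATG5, BECN1, CTSB and GUSB. The largest share was that of ATG16L1 NM_001190266.2, at 2.55 TPM with DMSO and 6.60 TPM with CCA-1.1, or 6.58% and 17.6% of the gene. The more abundant ATG16L1 transcripts NM_017974.4 (21.6 and 19.3 TPM) and NM_030803.7 (12.6 and 9.23 TPM) were lower, and the gene as a whole differed by -0.05. In ATG5, NM_001286106.2 was at 1.05 TPM and then listed at 0, while NR_104403.1 was at 0.05 and 1.47 TPM and XM_024446590.2 was listed at 0 and then at 1.03 TPM. ATG12 NR_073603.2 was at 1.07 and 3.15 TPM, and BECN1 NM_001314000.2 was listed at 0 and then at 1.17 TPM. ATG13 NM_001346342.2 (1.45 TPM), GUSB NM_001293105.2 (1.53 TPM) and the CTSB transcript described above were listed at 0 with CCA-1.1. ATG16L1 NM_001363742.2 was listed at 0 with DMSO and at 1.93 TPM with CCA-1.1. Reads that fit several transcripts of a gene were divided among them by estimation, and what part this had in these values was not tested.

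The leading transcript, the one highest in the DMSO library, was the same in both libraries for 45 of the 46 genes. Its share of the gene moved by under 5 percentage points in 36 of 46. Both counts include the 11 genes with 1 transcript, for which neither could change. Every change came from the 35 genes with several transcripts. The widest move was in UVRAG, where NM_003369.4 held 72.2% with DMSO and 90.2% with CCA-1.1, or 87.7% and 94.8% with curated transcripts only. In ATG7, NM_001349235.2 held 21.8% and 32.9%. With MITF and TFEB, described above, these are the 4 genes with the widest moves, and all 4 are among the low members.

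**Figure D2:**
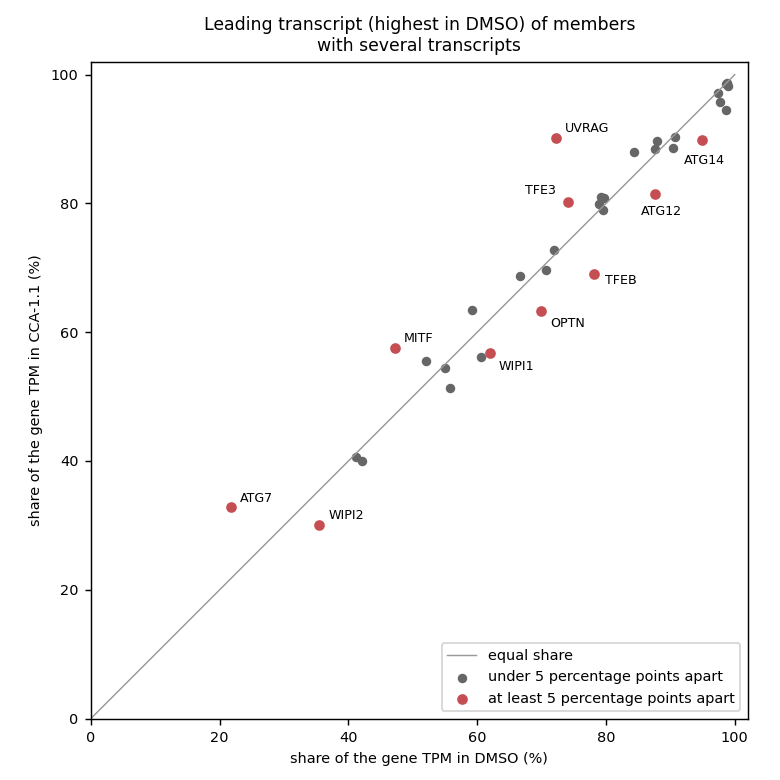
Share of a gene's TPM held by its leading transcript in the DMSO library (x axis, %) and by the same transcript in the CCA-1.1 library (y axis, %), for the 35 members with several transcripts. Most points lie on the line of equal share, and UVRAG lies farthest from it, at 72.2% and 90.2%.

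The rest of the pathway was described with 133 further genes, listed by role. Of these, 123 had a mean of at least 1 TPM, none passed 2-fold, 11 (8.94%) were higher and 15 (12.2%) were lower by 1.2-fold, and the median was -0.041. As for the members, the share of higher genes was below that of the comparison set (10.7%). The share of lower genes was above that of the comparison set (7.04%), and the share of lower members lay between them at 8.89%. No test was made of these shares.

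Of the lysosomal hydrolases outside the 46 genes, 8 of 21 (38.1%) were lower and none was higher by 1.2-fold, against 7.04% and 10.7% of the comparison set, and their median was -0.19. None of the 6 member hydrolases and saposins passed 1.2-fold. Together with them, 8 of 27 (29.6%) were lower and the median was -0.12. ARSB, a sulfatase, was at 17.1 TPM with DMSO and 11.8 TPM with CCA-1.1 (difference -0.51). SMPD1, the acid sphingomyelinase, was at 95.6 and 71.1 TPM (difference -0.42). AGA was at 21.4 and 15.7 TPM (difference -0.42), and SGSH, GM2A, NAGLU and ACP2 lay between -0.32 and -0.28. Among other cathepsins and peptidases, CTSS was lower, with 74.2 TPM against 51.7 TPM (difference -0.51), and 7 others were within 1.2-fold. CD68 (494 and 397 TPM, difference -0.31) and TPCN2 (3.08 and 2.32 TPM, difference -0.30) were lower among the membrane proteins, 2 of 15 (13.3%). SORT1 (55.5 and 43.7 TPM, difference -0.34) and NAGPA (7.20 and 5.60 TPM, difference -0.31) were lower among the genes that sort enzymes to the lysosome, 2 of 6 (33.3%).

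Genes listed under nutrient sensing at the lysosome, with TFEC counted among them, had a median of 0.10. Of these 20, 5 (25%) were higher and 1 (5%) was lower by 1.2-fold, against 10.7% and 7.04% of the comparison set. RRAGA, one of the Rag GTPases that recruit mTORC1, was at 107.6 TPM with DMSO and 157.2 TPM with CCA-1.1 (difference 0.54). LAMTOR2 was at 82.7 and 100.6 TPM (difference 0.28), whereas LAMTOR1, of the same complex, was at 79.6 and 64.3 TPM (difference -0.30). FNIP2 (33.3 and 41.1 TPM), SLC38A9 (4.78 and 6.09 TPM) and the fourth TFEB relative TFEC (1.15 and 1.87 TPM) were the other higher genes. In the remaining groups, ATG4C (10.9 and 14.8 TPM, difference 0.41), BNIP3 (236.6 and 284.8 TPM, difference 0.27), STX17 (6.89 and 9.09 TPM, difference 0.35) and VPS41 (14.5 and 19.0 TPM, difference 0.37) were higher and none was lower by 1.2-fold. The higher genes were 1 of 16 other autophagy core genes (6.25%), 1 of 9 other cargo receptors (11.1%) and 2 of 13 genes of fusion with the lysosome (15.4%). In the comparison set, 10.7% were higher.

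**Figure D3:**
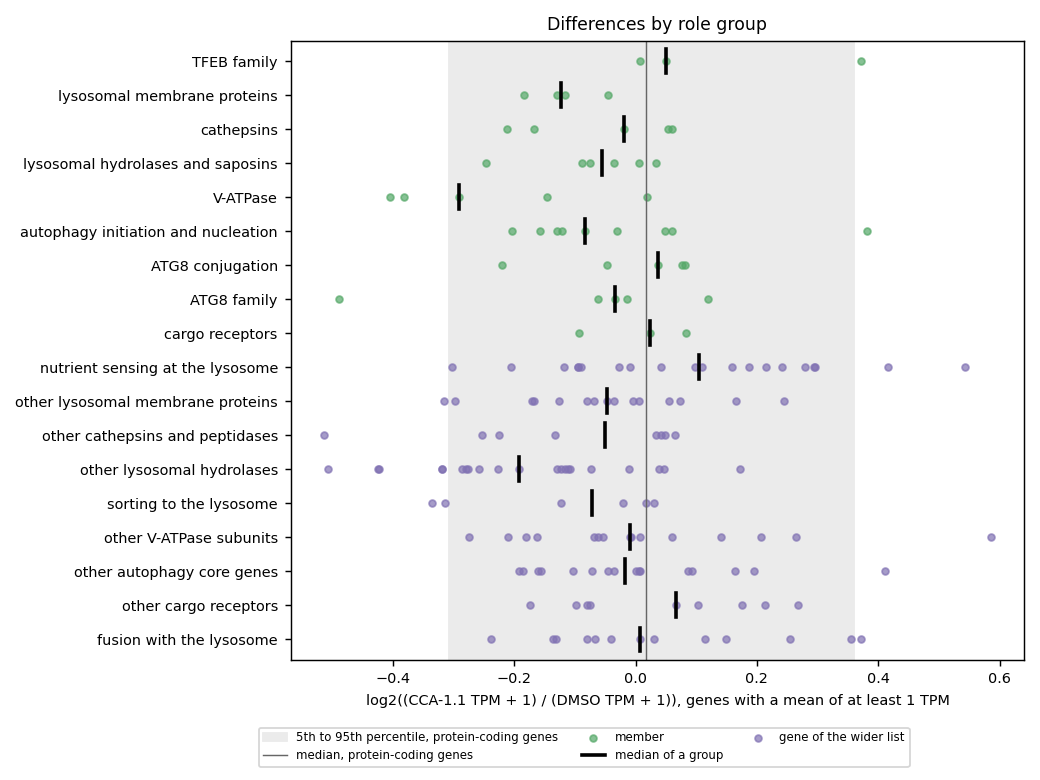
Differences by role group for genes that averaged 1 TPM or more, with members in green, the 133 further genes in purple, group medians as black bars, and the range between the 5th and 95th percentile of the comparison set in grey. The V-ATPase members have the lowest median (-0.29), followed by the other lysosomal hydrolases (-0.19), and nutrient sensing at the lysosome has the highest (0.10).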

How the data were processed

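Total RNA of U87 cells was extracted, enriched for mRNA and sequenced on an Illumina instrument. The authors checked the reads with FastQC 0.11.9 and MultiQC 1.1 and quantified RefSeq transcripts by Kallisto pseudo-alignment with GRCh38.p14 as the stated reference. The deposited values are TPM with 2 decimals, 1 column per library. Read depth does not follow from TPM, so no counting error is given.

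Transcripts (169966 of 177816) were matched to gene symbols through RefSeq (GRCh38.p14) with versions ignored, and TPM were summed per gene. Unmatched transcripts held 0.941% of the TPM with DMSO and 0.967% with CCA-1.1. Genes were counted past 2-fold and 1.2-fold with a pseudocount of 1 TPM and a minimum mean of 1 TPM. The 46 members are all named; of the 133 further genes, those past 1.2-fold are named, except 1 that is not reported here. Members, lists and folds were chosen with earlier results of these data known, and overlapping and similarly named genes were looked up after the values had been seen. The counting past 2-fold was checked on simulated data with large planted changes, which does not test the calls at 1.2-fold. Python 3.11.15, numpy 2.4.6, pandas 2.3.3 and matplotlib 3.10.9 were used.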

Additional observations from a re-analysis of the deposited data

How the results depend on the processing

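The alternatives were pseudocounts of 0.1 and 0.01 TPM, no minimum or a minimum mean of 10 TPM, scaling of the CCA-1.1 library so that protein-coding genes had a median ratio of 1 (factor 1.003), curated transcripts only, and matching by versioned identifiers only. Medians and single differences were taken to have moved when they changed by at least 0.1, and counts when they changed by more than 1.5 times. The medians of the 45 members and of the 9 role groups did not move under any of them, and no member passed 2-fold. The number of members lower by 1.2-fold was 4 under each. The number higher by 1.2-fold was 1 in place of 2 with a minimum mean of 10 TPM, where TFEB is left out, and also 1 with curated transcripts only, where TFEB was at 0.19. Of the 133 further genes, 7 in place of 11 were higher with a minimum mean of 10 TPM, where fewer genes are counted. The comparison set, of which 10.7% was higher and 7.04% lower by 1.2-fold, moved too. Its shares became 13.3% and 8.64% at a pseudocount of 0.1 TPM, and 13.7% and 8.89% at 0.01 TPM. Curated transcripts gave 11.4% and 9.77%, and the 10 TPM limit gave 7.44% and 6.07%. An unchanged count of members is therefore not an unchanged position relative to the comparison set. Member transcripts past 2-fold, 7 higher and 4 lower, became 36 and 34 with a pseudocount of 0.1 TPM, 40 and 41 with 0.01 TPM, and 3 and 1 with a minimum mean of 1 TPM for a transcript. Among single members, TFEB (0.49 and 0.51 with the smaller pseudocounts) and UVRAG (0.24 with curated transcripts only) moved, and the sign of ATG16L1 changed from -0.05 to 0.002 with curated transcripts only. With curated transcripts only, 21 shares of leading transcripts also moved by 5 percentage points or more. No paired analysis was possible because each condition had a single library, and no library could be left out.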

Other observations

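Of the 133 further genes, 10 had a mean below 1 TPM and are named here after their values had been seen. GALC, the galactosylceramidase, was listed at 0 in both libraries for all of its transcripts. ULK2, the relative of ULK1, was at 0.03 TPM with DMSO and 0.01 TPM with CCA-1.1, and the sorting receptor SORL1 at 0.05 and 0.03 TPM. The hydrolase genes CTSH (0.10 and 0.23 TPM), CTSV (0.32 and 0.30 TPM) and FUCA1 (0.34 and 0.21 TPM) were also near 0. Among the V-ATPase genes, ATP6V0A4 (0.29 and 0.14 TPM), ATP6V1B1 (0.35 and 0.49 TPM) and ATP6V1C2 (0.49 TPM in both) were low, as was MAP1LC3B2 (0.83 and 0.73 TPM).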
